A study of Mus musculus with 9 samples.

Results

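The genes described here are 10 genes of the pericentral, WNT-dependent programme of hepatocytes: Glul, Cyp2e1, Cyp1a2, Oat, Axin2, Lgr5, Tbx3, Rhbg, Rnf43 and Lect2. They were chosen by name as markers of pericentral zonation and as WNT target genes, and all 10 were found among the 54532 genes of the table. Liver messenger RNA was sequenced as 9 poly(A) libraries from male wild-type C57BL/6J mice in 3 groups of 3. The 326E group received CDAA-HFD, a diet high in fat and deficient in choline that causes steatohepatitis and fibrosis in mice, with the compound 326E at 30 mg/kg for 6 weeks. The vehicle group received CDAA-HFD with vehicle, and the chow group normal chow with vehicle. By the study's title, 326E acts on both ACLY, ATP citrate lyase, and PPARα. No age is given in the labels, and all library titles begin with MCD, chow included, although the protocol names CDAA-HFD. Whether libraries came from separate animals is not in the labels, so p-values measure the spread between these libraries.

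Hepatocytes along the axis from portal to central vein carry out different tasks. Endothelial cells of the central vein and the nearby sinusoids secrete WNT2, WNT9B and R-spondin 3, which stabilise β-catenin in the neighbouring hepatocytes. With TCF factors, β-catenin then drives glutamine synthesis and drug-metabolising cytochromes P450, while ureagenesis and gluconeogenesis dominate near the portal vein. Some members (Axin2, Lgr5, Rnf43) belong to the feedback machinery of the pathway, and the others are its output in hepatocytes.

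Depth ran between 13275888 and 17058316 assigned reads. Values are FPKM as deposited, and log2 changes were taken on log2(FPKM + 1) and are given ± standard error. Calls were made with limma at an adjusted p under 0.05, with Benjamini-Hochberg adjustment over the 13737 genes tested. All 10 members passed the filter of at least 0.5 FPKM in at least 3 libraries, Lgr5 with 6 libraries over that level and the other members with 9. On the second principal component of the tested genes, which held 15.3% of the variance, vehicle replicate 2 (5.28) was apart from vehicle replicates 1 (21.8) and 3 (22.0), so log2 changes with only vehicle replicate 2 kept are given for members where they differ. That leaves 1 vehicle library, whose spread is taken from the other groups, so only the sizes of such values are given, and a lost call there shows nothing about a gene. Scaling to total assigned reads moved the median log2 change of all genes in vehicle against chow to 0.25, against -0.04 as deposited, and in 326E against chow to 0.24, against -0.02. Hepatocyte identity was plain in every library: Alb, albumin, lay between 16456 and 25782 FPKM in 326E, 20061 and 32449 FPKM in vehicle and 25921 and 34911 FPKM in chow libraries.

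The promoters of 4 members are shown: Lect2 and Glul, which were lower with 326E, and Cyp2e1 and Cyp1a2, the drug-metabolising members, so that windows with and without the letters of a TCF/LEF site can be compared. Each is the RefSeq sequence of mouse build GRCm38.p6, 250 bases before to 50 after a reference start, on the strand of the gene. The reference start is that of the promoter sequence, and for these 4 members it differs from the gene start in the deposited table. Capitals mark the core letters of the TCF/LEF motif, CTTTGA, on either strand. Lect2 lies at chr13:56548489-56548788, minus strand, Glul at chr1:153899679-153899978, plus strand, Cyp2e1 at chr7:140763569-140763868, plus strand, and Cyp1a2 at chr9:57683606-57683905, minus strand.
Lect2: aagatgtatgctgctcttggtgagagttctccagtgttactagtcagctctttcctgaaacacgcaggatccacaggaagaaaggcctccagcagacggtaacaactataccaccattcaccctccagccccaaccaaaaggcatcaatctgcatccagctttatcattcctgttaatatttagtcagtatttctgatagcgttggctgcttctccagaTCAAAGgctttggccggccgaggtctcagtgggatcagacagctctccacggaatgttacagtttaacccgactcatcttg
Glul: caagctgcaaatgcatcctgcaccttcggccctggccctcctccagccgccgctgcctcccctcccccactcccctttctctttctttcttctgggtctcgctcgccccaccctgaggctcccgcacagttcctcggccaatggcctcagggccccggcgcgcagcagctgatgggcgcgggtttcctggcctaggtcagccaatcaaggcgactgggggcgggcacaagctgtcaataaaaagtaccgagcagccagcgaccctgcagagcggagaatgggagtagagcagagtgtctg
Cyp2e1: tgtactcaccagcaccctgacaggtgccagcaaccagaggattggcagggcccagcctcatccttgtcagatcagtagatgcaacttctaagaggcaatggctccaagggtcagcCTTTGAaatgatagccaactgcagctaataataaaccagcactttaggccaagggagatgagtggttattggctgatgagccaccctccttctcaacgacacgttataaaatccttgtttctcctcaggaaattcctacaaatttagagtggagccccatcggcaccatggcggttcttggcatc
Cyp1a2: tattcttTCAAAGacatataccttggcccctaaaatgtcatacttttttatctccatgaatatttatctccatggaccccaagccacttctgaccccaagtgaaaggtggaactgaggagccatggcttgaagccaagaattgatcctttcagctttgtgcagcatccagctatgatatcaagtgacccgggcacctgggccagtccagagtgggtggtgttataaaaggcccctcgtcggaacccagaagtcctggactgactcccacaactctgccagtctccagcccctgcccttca
The core began 31 bases before the reference start of Lect2, 135 before that of Cyp2e1 and 243 before that of Cyp1a2. It was not among the letters of the Glul window. Of the 10 members 7, all but Lgr5, Tbx3 and Rhbg, were matched in the promoter table, with 8 promoters, and 3 of these 8 held the core, as did 5257 of all 32851 promoters of the same length (16%). These are matches of letters and not measured binding.

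On build mm10, by the coordinates of the deposited table, the members of nitrogen handling were Glul (ENSMUSG00000026473) at chr1:153899944-153909723, plus strand, Rhbg (ENSMUSG00000104445) at chr3:88242874-88254709, minus strand and Oat (ENSMUSG00000030934) at chr7:132557478-132576398, minus strand. The cytochromes P450 were Cyp2e1 (ENSMUSG00000025479) at chr7:140763739-140774987, plus strand and Cyp1a2 (ENSMUSG00000032310) at chr9:57676937-57683703, minus strand. The feedback genes were Axin2 (ENSMUSG00000000142) at chr11:108920349-108950783, plus strand, Lgr5 (ENSMUSG00000020140) at chr10:115450311-115587780, minus strand and Rnf43 (ENSMUSG00000034177) at chr11:87662722-87735539, plus strand. The others were Tbx3 (ENSMUSG00000018604) at chr5:119670669-119684724, plus strand and Lect2 (ENSMUSG00000021539) at chr13:56542464-56548502, minus strand. Other annotated genes overlap all members but Cyp2e1, Cyp1a2 and Lect2. Those over Rnf43 reached 1.95 FPKM, near its own level, those over Axin2 0.325 FPKM, over Lgr5 0.31 FPKM and over Glul 0.39 FPKM, and the one over Rhbg was listed at 0.

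The level of the members spanned more than 3 orders of magnitude. In 326E livers Cyp2e1 stood highest at 4207 ± 1036 FPKM (mean ± SD, n = 3, as for the values that follow), Cyp1a2 followed at 230 ± 28.4 FPKM, Glul at 198 ± 20.3 FPKM and Oat at 174 ± 77.7 FPKM. Lect2 stood at 65.6 ± 1.49 FPKM, Tbx3 at 3.31 ± 1.99 FPKM, Rnf43 at 3.21 ± 0.872 FPKM, Axin2 at 1.38 ± 0.499 FPKM, Rhbg at 1.31 ± 0.498 FPKM and Lgr5 at 0.55 ± 0.0671 FPKM. The ranges of Cyp1a2, Glul and Oat over the 326E libraries overlapped, as did those of Tbx3 and Rnf43 and those of Axin2 and Rhbg. Within each 326E library Cyp1a2 was above Glul (209 and 185, 218 and 188, 262 and 221 FPKM). The order of members was not tested. In chow livers Cyp2e1 was at 4881 ± 221 FPKM, Cyp1a2 at 486 ± 84.5 FPKM and Oat at 483 ± 118 FPKM, ahead of Glul at 255 ± 20.7 FPKM. The highest 5 members lay at percentile 96.0 or above of the mean level among tested genes, while Lgr5 lay at percentile 13.1 and Axin2 at percentile 21.4. Reads behind a value numbered 112347 to 173547 per library for Cyp2e1, and 29 to 180 for Rhbg, 44 to 251 for Lgr5 and 46 to 192 for Axin2, so counting error is part of the spread of these last 3.

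The main question of the design was what 326E changed in livers on CDAA-HFD. Of the 10 members 0 were higher and 3 were lower in 326E than in vehicle livers, Rhbg, Lect2 and Glul, and 7 did not pass. Among all tested genes 11.5% were called in this comparison, 4.96% higher and 6.5% lower. The median log2 change of the members was -0.02, the same as that of all tested genes at -0.02. The diet question, vehicle against chow, gave 2 members higher, Rhbg and Lect2, 2 lower, Cyp1a2 and Tbx3, and 6 that did not pass. In that comparison 41.6% of all tested genes were called, 20.8% higher and 20.8% lower, so 4 of 10 is close to the background. In 326E against chow 2 members were lower, Cyp1a2 and Oat, and 8 did not pass, against 26.8% of all genes called, 14.4% higher and 12.5% lower. The 3 comparisons share libraries, so they are set side by side and not counted as independent. In bulk liver, fewer cells of a type and less RNA per cell cannot be told apart.

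**Figure D1:**
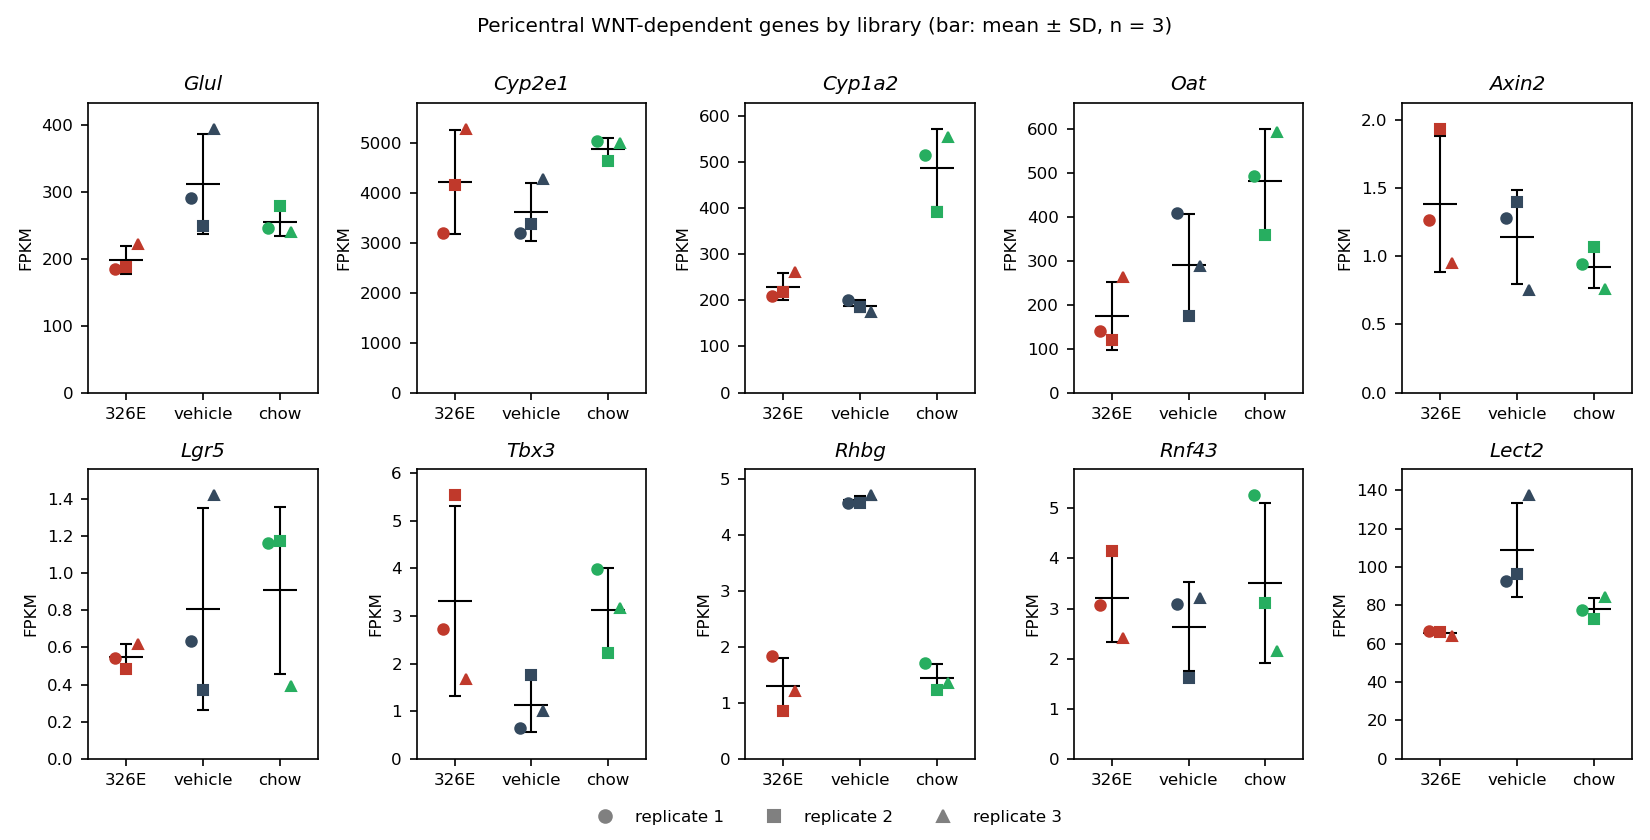
FPKM of each member in every library (y axis, linear, from 0), with 326E, vehicle and chow livers along the x axis, symbols for the replicate and bars for mean ± SD of 3 libraries. Rhbg stands at 4.57 to 4.70 FPKM in the vehicle libraries and at most at 1.84 FPKM in all others, while Cyp1a2 stands apart in chow.

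Genes of ammonia and amino acid handling come first. Rhbg, a membrane channel for ammonia in the pericentral hepatocytes, had 1.84, 0.857 and 1.22 FPKM in 326E livers, 4.58, 4.57 and 4.70 FPKM in vehicle livers, and 1.72, 1.24 and 1.36 FPKM in chow livers. Every vehicle library was above every 326E and chow library, and the 326E and chow libraries overlapped. Rhbg fell with 326E (log2 change -1.31 ± 0.15, adjusted p = 0.00204) and rose with the diet (1.21 ± 0.15, adjusted p = 0.000295). Its mean with 326E was 0.283 of the vehicle mean, and the vehicle mean was 3.21 times the chow mean. In 326E against chow its log2 change was -0.10 ± 0.15 (95% interval -0.44 to 0.24, adjusted p = 0.668). Both calls passed in every one of the 19 other settings of the processing. These values rest on 30 to 63 reads in 326E, 145 to 180 reads in vehicle and 29 to 43 reads in chow libraries.

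Glul encodes glutamine synthetase, which fixes ammonia in the last rows of hepatocytes around the central vein. It had 185, 188 and 221 FPKM in 326E livers, 291, 248 and 394 FPKM in vehicle livers, and 246, 278 and 240 FPKM in chow livers. All 326E libraries were below all vehicle and all chow libraries, and vehicle and chow overlapped. Glul fell with 326E by 0.63 ± 0.17 on the log2 scale, at an adjusted p of 0.0495, just under the threshold. Only 6 of 19 other settings of the processing kept this call (adjusted p = 0.00757 to 0.142), which was lost when any single 326E or chow library was left out, and without vehicle replicate 1 (-0.66, adjusted p = 0.0887) or 3 (-0.44, adjusted p = 0.111). With only vehicle replicate 2 kept the value was -0.33. Against chow, vehicle stood at 0.26 ± 0.17 (adjusted p = 0.255) and 326E at -0.36 ± 0.17 (adjusted p = 0.156). With quantile normalization and with total assigned reads, vehicle against chow passed as higher (0.86 and 0.66).

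Oat, ornithine aminotransferase, converts ornithine towards glutamate in pericentral cells. It had 140, 119 and 263 FPKM in 326E livers, 408, 174 and 289 FPKM in vehicle livers, and 494, 360 and 595 FPKM in chow livers. The 326E libraries were below all chow libraries and overlapped with vehicle, where replicate 2 was lowest. Oat fell in 326E against chow (-1.53 ± 0.37, adjusted p = 0.0159), and its mean was 0.36 of the chow mean. This call was lost without 326E replicate 1 (-1.41), 326E replicate 2 (-1.30) or chow replicate 3 (-1.36), and with quantile normalization (-0.96). Neither step on its own passed, with -0.74 ± 0.37 for 326E against vehicle (adjusted p = 0.23) and -0.79 ± 0.37 for vehicle against chow (adjusted p = 0.121). Without vehicle replicate 2 the first was -1.07, and with only that replicate kept it was -0.09. Oat shares coordinates with a neighbour on the same strand, Fgfr2, which reached at most 7.19 FPKM.

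The cytochromes P450 differed from each other. Cyp2e1, which oxidises ethanol, acetaminophen and other small molecules, had 3200, 4150 and 5271 FPKM in 326E livers, 3182, 3375 and 4272 FPKM in vehicle livers, and 5024, 4626 and 4993 FPKM in chow livers. The vehicle libraries lay below all chow libraries, while 326E replicate 3 was above them. None of its comparisons passed, with 0.20 ± 0.22 for 326E against vehicle (95% interval -0.30 to 0.71, adjusted p = 0.598), -0.45 ± 0.22 for vehicle against chow (adjusted p = 0.141) and -0.24 ± 0.22 for 326E against chow (adjusted p = 0.457). The direction depended on scaling: with quantile normalization vehicle against chow turned to 0.59 (adjusted p = 0.0167) and 326E against chow to 0.55 (adjusted p = 0.0365), past the threshold as higher.

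Cyp1a2, which metabolises caffeine and is also induced through the aryl hydrocarbon receptor, had 209, 218 and 262 FPKM in 326E livers, 201, 185 and 175 FPKM in vehicle livers, and 514, 391 and 553 FPKM in chow livers. Chow livers did not overlap with either CDAA-HFD group, and every 326E library was above every vehicle library. Cyp1a2 fell with the diet by 1.36 ± 0.16 (adjusted p = 0.000203), to 0.385 of the chow mean, and was also lower in 326E livers than in chow livers (-1.07 ± 0.16, adjusted p = 0.00158). The diet call passed in all 19 other settings of the processing, from -1.51 to -0.71, and the 326E against chow call in 18, being lost with quantile normalization (-0.47, adjusted p = 0.0699). For 326E against vehicle the value was 0.29 ± 0.16 (95% interval -0.07 to 0.64, adjusted p = 0.271).

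The feedback genes of the pathway had low levels and no call in any comparison. Axin2, a scaffold of the complex that degrades β-catenin and a common readout of WNT activity, had 1.26, 1.93 and 0.952 FPKM in 326E livers, 1.28, 1.39 and 0.748 FPKM in vehicle livers, and 0.943, 1.07 and 0.76 FPKM in chow livers. All groups overlapped. Its log2 change was 0.15 ± 0.17 in 326E against vehicle (95% interval -0.24 to 0.54, adjusted p = 0.621), 0.14 ± 0.17 in vehicle against chow (interval -0.25 to 0.53) and 0.29 ± 0.17 in 326E against chow (interval -0.10 to 0.68).

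Lgr5, a receptor for R-spondins, had 0.546, 0.485 and 0.619 FPKM in 326E livers, 0.637, 0.369 and 1.42 FPKM in vehicle livers, and 1.16, 1.17 and 0.39 FPKM in chow livers. Spread within vehicle and within chow, with coefficients of variation of 67.5% and 49.4%, exceeded the difference between their means, while the 326E libraries varied by 12.2%. Its log2 change was -0.18 ± 0.23 in 326E against vehicle (interval -0.70 to 0.34) and -0.09 ± 0.23 in vehicle against chow (interval -0.61 to 0.43), and -0.27 ± 0.23 in 326E against chow. Rnf43, a ubiquitin ligase that removes Frizzled receptors from the cell surface, had 3.06, 4.14 and 2.42 FPKM in 326E livers, 3.09, 1.62 and 3.20 FPKM in vehicle livers, and 5.26, 3.12 and 2.15 FPKM in chow livers. Again all groups overlapped, with 0.22 ± 0.28 for 326E against vehicle (interval -0.40 to 0.85) and -0.28 ± 0.28 for vehicle against chow (interval -0.91 to 0.34), and -0.06 ± 0.28 for 326E against chow. Changes smaller than about these intervals, on the scale of log2(FPKM + 1), could not be resolved with 3 libraries per group. Adding 1 to FPKM shrinks changes at such low levels, most for Lgr5 and Axin2, so the intervals are not limits on fold changes in FPKM. For Lgr5 the 326E mean was 0.68 of the vehicle mean, beside the log2 change of -0.18.

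Tbx3, a T-box transcription factor downstream of β-catenin in hepatocytes, had 2.73, 5.53 and 1.67 FPKM in 326E livers, 0.637, 1.76 and 0.999 FPKM in vehicle livers, and 3.98, 2.21 and 3.16 FPKM in chow livers. Vehicle lay below all chow libraries, and 326E replicate 3 lay below vehicle replicate 2. Tbx3 fell with the diet (-0.96 ± 0.32, adjusted p = 0.0396), to 0.363 of the chow mean, a call kept in 10 of 19 other settings of the processing and lost, among others, when scaled to total assigned reads (-0.70), without 326E replicate 1 (adjusted p = 0.0542), without vehicle replicate 1 (-0.79) or 3 (-0.93), and without chow replicate 1 (-0.81) or 3 (-0.94). The value was -0.55 with only vehicle replicate 2 kept. With 326E the mean was 2.92 times the vehicle mean, and the log2 change of 0.95 ± 0.32 did not pass (95% interval 0.22 to 1.68, adjusted p = 0.092). The value for 326E against chow was -0.01 ± 0.32 (95% interval -0.74 to 0.72). The antisense gene Tbx3os1 overlaps Tbx3 and reached at most 1.15 FPKM, and since the strand setting of the counting is not given in the sources used here, reads of the pair cannot be told apart.

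Lect2 encodes a protein secreted by hepatocytes, a hepatokine whose gene is a known target of β-catenin in liver. It had 66.6, 66.3 and 63.9 FPKM in 326E livers, 92.9, 96.7 and 137 FPKM in vehicle livers, and 77.6, 73.2 and 84.2 FPKM in chow livers. No libraries of different groups overlapped, with vehicle highest and 326E lowest, and the 326E libraries varied by only 2.28%. Lect2 fell with 326E (-0.70 ± 0.15, adjusted p = 0.0192), to 0.602 of the vehicle mean, and rose with the diet (0.45 ± 0.15, adjusted p = 0.0364). The first call was kept in 16 of 19 other settings of the processing and lost when any one 326E library was left out (highest adjusted p = 0.0634). The diet call was kept in 12 of 19, and was lost, among others, without vehicle replicate 3, 326E replicate 2 or any one chow library. Without vehicle replicate 3 the values were -0.52 and 0.27, and with only vehicle replicate 2 kept they were -0.55 and 0.30. In 326E against chow the value was -0.25 ± 0.15 (adjusted p = 0.245), although the groups did not overlap, and turned to 0.11 when scaled to total assigned reads.

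**Figure D2:**
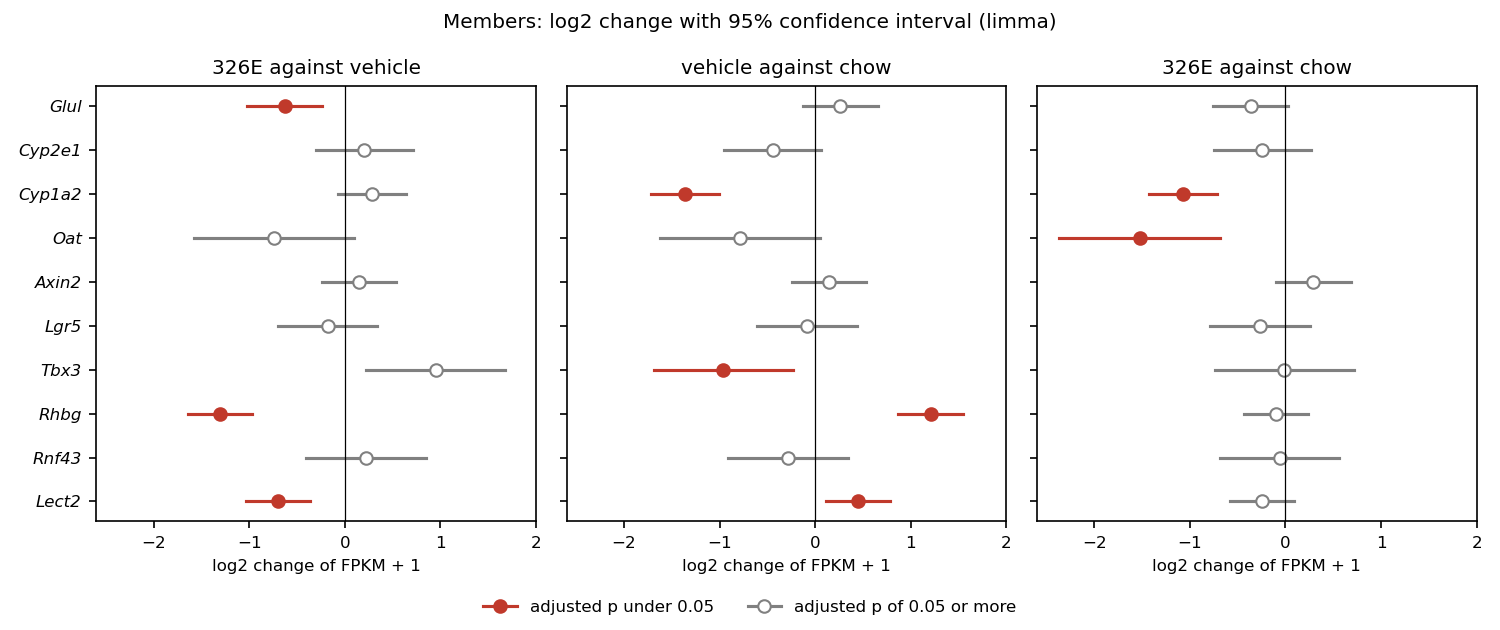
Log2 change of each member with its 95% confidence interval from limma (log2 of FPKM + 1), 1 panel per comparison, with filled points for adjusted p under 0.05. Rhbg has called changes of -1.31 with 326E and 1.21 with the diet, and the intervals of Axin2, Lgr5 and Rnf43 span 0 in every panel.

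Within the 326E group the order of the libraries differed between members. Replicate 2 was highest and replicate 3 lowest for Axin2, Tbx3 and Rnf43, while replicate 3 was highest for Glul, Cyp2e1, Cyp1a2, Oat and Lgr5. Alb, which is not a member, was also highest in replicate 3, at 16456, 18250 and 25782 FPKM, so that order is not particular to the members. By Pearson correlation of log2(FPKM + 1) over the 9 libraries, which share group differences and scaling, the tested genes most like Glul were Slc38a2 (0.964), a glutamine transporter, Mbd5 (0.96) and 1810032O08Rik (0.953). For Cyp2e1 they were Ugt1a1 (0.952), a bilirubin glucuronosyltransferase, the processed pseudogene Gm10123 (0.951) and Acsm3 (0.949), and for Axin2 the noncoding genes Gm15247 (0.929) and 9330151L19Rik (0.921) and the immunoglobulin segment Igkv8-21 (0.919). Each is picked as the highest among all tested genes over 9 libraries, and such a pick gives high values by itself. Shared function or regulation was not tested.

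The other genes of the pericentral zone were described from a further list. Of its 19 genes, all tested, 0 were higher, 6 were lower and 13 did not pass in 326E against vehicle, with a median of -0.34 against -0.02 for all tested genes. Slc13a3, a transporter of dicarboxylates, stood at 2.21 ± 0.255 FPKM in 326E, 10.7 ± 0.683 FPKM in vehicle and 4.44 ± 1.74 FPKM in chow livers, and fell with 326E (-1.87 ± 0.19, adjusted p = 0.00132) and rose with the diet (1.15 ± 0.19). Cyp2c37, a P450 whose paralogs are so near that the counting may split its reads, stood at 10.3 ± 8.14 FPKM in 326E, 47.2 ± 20.3 FPKM in vehicle and 236 ± 36.6 FPKM in chow livers, and fell with 326E (-2.26 ± 0.51, adjusted p = 0.0237). That call was lost, among others, without vehicle replicate 1 (-2.16) or 3 (-1.97) and without 326E replicate 1 (-1.73) or 2 (-2.23). Slc1a2, the glutamate transporter of the same perivenous cells that carry glutamine synthetase, is named after its values were seen: 11.2 ± 1.71 FPKM in 326E, 22.3 ± 3.82 FPKM in vehicle and 23.3 ± 1.57 FPKM in chow livers (-0.92 ± 0.15 for 326E against vehicle, adjusted p = 0.0064). With only vehicle replicate 2 kept the median of the 19 was 0.07.

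In vehicle against chow, 2 of the 19 other pericentral genes were higher, 5 were lower and 12 did not pass, with a median of -0.39, which was 0.07 with quantile normalization and 0.00 with total assigned reads. Cyp2c29, also with close paralogs, had the largest fall of the list, with 7.84, 23.7 and 55.2 FPKM in 326E, 9.21, 2.22 and 9.44 FPKM in vehicle and 549, 455 and 499 FPKM in chow livers (-6.16 ± 0.64 with the diet, adjusted p = 0.000116). In 326E against chow 10 of the 19 were lower and 0 higher, with a median of -0.72.

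Periportal genes were examined beside them, since zonation is a contrast between both ends of the lobule. Of 19 periportal genes, 0 were higher and 1 was lower in 326E than in vehicle livers, Asl of the urea cycle (-1.05 ± 0.18, adjusted p = 0.00799), with a median of -0.26. With quantile normalization 6 of the 19 were called and with total assigned reads 5. In vehicle against chow 1 was higher and 11 were lower, with a median of -0.74, which was -0.02 with quantile normalization and -0.34 with total assigned reads. Cyp2f2, the P450 that marks periportal hepatocytes, stood at 174 ± 17 FPKM in 326E, 121 ± 23.4 FPKM in vehicle and 581 ± 27.5 FPKM in chow livers. It fell with the diet (-2.28 ± 0.15, adjusted p = 1.31e-05), and its value of 0.54 ± 0.15 for 326E against vehicle did not pass (adjusted p = 0.0523). Hal, histidine ammonia-lyase, fell with the diet by 1.68 ± 0.24 (adjusted p = 0.000593), with -0.56 ± 0.24 for 326E against vehicle (adjusted p = 0.164), and Gldc, which cleaves glycine, fell with the diet by 1.88 ± 0.16.

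Hepatocyte markers listed as without zonation, a trait that was not tested and need not hold for each, had 0 higher and 0 lower in 326E against vehicle. By limma 10 of 10 were not called, where 1 of the 10 had an unadjusted p under 0.05 and voom called 1. With the diet 0 were higher and 5 of the 10 were lower, with a median of -0.77, among them Fgb (fibrinogen, -1.55 ± 0.24) and Ttr (transthyretin, -1.28 ± 0.21, lost with quantile normalization). Hnf4a, the transcription factor of hepatocyte identity, stood at 93.5 ± 8.43 FPKM in 326E, 84.3 ± 2.42 FPKM in vehicle and 150 ± 29.2 FPKM in chow livers, and fell with the diet by 0.81 ± 0.14.

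**Figure D3:**
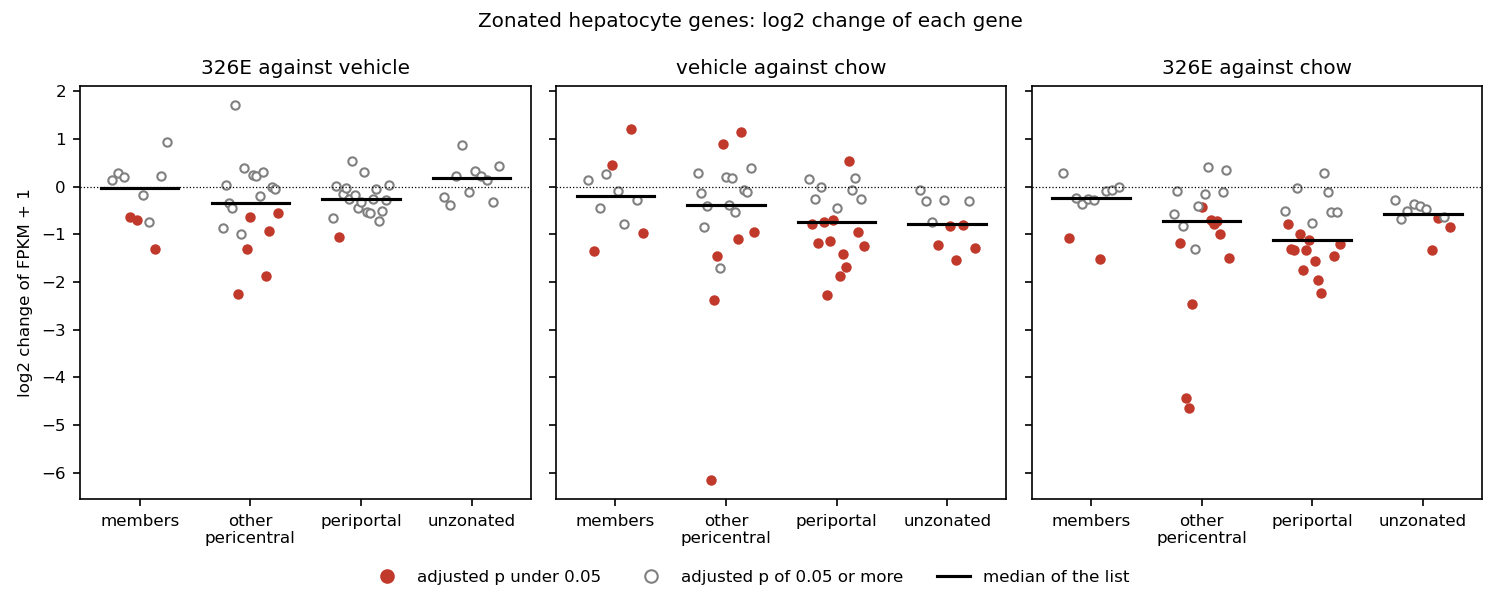
Log2 change of each gene (y axis, log2 of FPKM + 1) in the 10 members, 19 other pericentral genes, 19 periportal genes and 10 hepatocyte genes listed as without zonation, with filled points for adjusted p under 0.05 and a line at the median of each list. Medians with the diet are -0.19, -0.39, -0.74 and -0.77 in that order, on the values as deposited. Adding 1 to FPKM shrinks changes of low genes, which the lists hold in different shares. Differences between the medians were not tested.

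Upstream of the members, ligands were low in these whole-liver libraries, and 7 of 25 ligand, R-spondin and secretion genes were tested, with medians of -0.15 with 326E and 0.27 with the diet. Wnt2, the sinusoidal ligand, stood at 2.59 ± 0.359 FPKM in 326E, 3.03 ± 0.782 FPKM in vehicle and 2.44 ± 0.524 FPKM in chow livers, with -0.15 ± 0.17 for 326E against vehicle (interval -0.53 to 0.22). Wnt9b, the ligand of the central vein, stood at 0.375 ± 0.14 FPKM in 326E, 0.245 ± 0.0445 FPKM in vehicle and 0.43 ± 0.135 FPKM in chow livers. Its log2 change for 326E against vehicle was 0.14 ± 0.12. The 326E mean was 1.53 times the vehicle mean, since adding 1 to FPKM shrinks changes at this level. Rspo3, the R-spondin that sustains the pericentral programme, stood at 3.11 ± 0.373 FPKM in 326E, 3.45 ± 0.155 FPKM in vehicle and 2.70 ± 0.32 FPKM in chow livers, with -0.12 ± 0.10 for 326E and 0.27 ± 0.10 (adjusted p = 0.0588) for the diet. Wls, which carries WNT proteins to the cell surface, stood at 1.92 ± 0.131 FPKM in 326E, 3.33 ± 0.238 FPKM in vehicle and 1.26 ± 0.264 FPKM in chow livers. Wls fell with 326E (-0.57 ± 0.11, adjusted p = 0.0128), was the 1 called gene of the 7, and rose with the diet (0.94 ± 0.11). The 326E call of Wls was lost without 326E replicate 2 (-0.54). With the diet 3 of the 7 were higher and 1 was lower, with Wnt5b, a noncanonical ligand, at 0.76 ± 0.20. The 1 lower gene, named after its values were seen, was Porcn, which lipidates WNT proteins (-0.48 ± 0.10, adjusted p = 0.00397). Its vehicle mean was 0.367 of the chow mean.

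Among 21 tested of 29 receptors and signal transducers, 1 was higher and 2 were lower with 326E, and 2 were higher and 3 lower with the diet, with medians of 0.01 and -0.11, the last of which was 0.18 with total assigned reads. Ctnnb1, which encodes β-catenin, stood at 50.9 ± 1.52 FPKM in 326E, 53.1 ± 2.30 FPKM in vehicle and 50.1 ± 0.935 FPKM in chow livers, with -0.06 ± 0.08 for 326E against vehicle (interval -0.24 to 0.13) and 0.08 ± 0.08 for the diet (interval -0.10 to 0.27). Tcf7l2, its main partner on DNA in liver, had -0.10 ± 0.13 for 326E and -0.16 ± 0.13 for the diet. Lgr4, the R-spondin receptor present throughout the lobule, stood at 9.12 ± 2.53 FPKM in 326E, 9.72 ± 2.43 FPKM in vehicle and 19.0 ± 1.05 FPKM in chow livers. It fell with the diet (-0.92 ± 0.20, adjusted p = 0.00537), was lower in 326E than in chow (-1.01 ± 0.20, adjusted p = 0.00604), and had -0.09 ± 0.20 for 326E against vehicle. Fzd1, a Frizzled receptor, rose with the diet by 0.56 ± 0.13 and fell with 326E by 0.50 ± 0.13 (adjusted p = 0.044). Ror1, a receptor of noncanonical WNT, fell with 326E by 0.47 ± 0.09, to 0.441 of the vehicle mean. The 1 higher gene, named after its values were seen, was Bcl9l, a coactivator of β-catenin (0.39 ± 0.11, adjusted p = 0.0491). The Fzd1 call with 326E was lost in 13 of 19 other settings of the processing, without each 326E and each vehicle library among them.

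Of 27 inhibitors and destruction complex genes 15 were tested, with 0 higher and 2 lower with 326E, and 2 higher and 1 lower with the diet, with medians of -0.13 and 0.02. The secreted antagonist Frzb rose with the diet by 2.27 ± 0.13 and fell with 326E by 0.72 ± 0.13. Its vehicle mean was 12.4 times the chow mean of 0.499 FPKM, a level where adding 1 shrinks the log2 change. Its 326E mean was 0.54 of the vehicle mean. The secreted Dkk3 rose with the diet by 1.65 ± 0.20 and fell with 326E by 0.77 ± 0.20 (adjusted p = 0.0424). This fall was lost in 13 of 19 other settings of the processing, among them without vehicle replicate 2 (-0.58) and without 326E replicate 3 (-0.58). Znrf3, the ligase related to Rnf43, had -0.22 ± 0.12 for 326E and 0.30 ± 0.12 (adjusted p = 0.0796) for the diet. Of 9 other WNT target genes 7 were tested, with 0 higher and 1 lower with 326E, and 3 higher and 1 lower with the diet, with medians of -0.25 and 0.51. Cd44, an adhesion receptor also present on leukocytes, fell with 326E (-0.94 ± 0.12, adjusted p = 0.00263). With the diet Myc and Ccnd1, growth genes with many inputs, rose by 3.24 ± 0.57 and 2.41 ± 0.30. Myc had 5.81, 5.48 and 7.89 FPKM in 326E, 33.2, 7.04 and 49.9 FPKM in vehicle and 0.97, 2.10 and 1.71 FPKM in chow livers, so vehicle replicates 1 and 3 stood apart.

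Sp5, a transcription factor induced by WNT, was the 1 gene of these that fell with the diet. It had 1.05, 1.42 and 0.593 FPKM in 326E livers, 0.291, 0.539 and 0.387 FPKM in vehicle livers, and 1.29, 0.772 and 1.08 FPKM in chow livers, with vehicle below both other groups. Sp5 fell with the diet (-0.54 ± 0.17, adjusted p = 0.0286), and its 0.51 ± 0.17 with 326E did not pass (adjusted p = 0.0829). The vehicle mean was 0.387 of the chow mean, and the 326E mean 2.52 times the vehicle mean. These values rest on few reads: 39, 54 and 19 in 326E, 10, 23 and 14 in vehicle and 35, 21 and 25 in chow libraries. The call of Sp5 was not followed over the other settings of the processing. Nkd1, an inhibitor induced by WNT, had -0.13 ± 0.18 with 326E and 0.24 ± 0.18 with the diet, and Notum, a secreted deacylase of WNT, had 0.10 ± 0.21 and -0.47 ± 0.21 (adjusted p = 0.106).

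**Figure D4:**
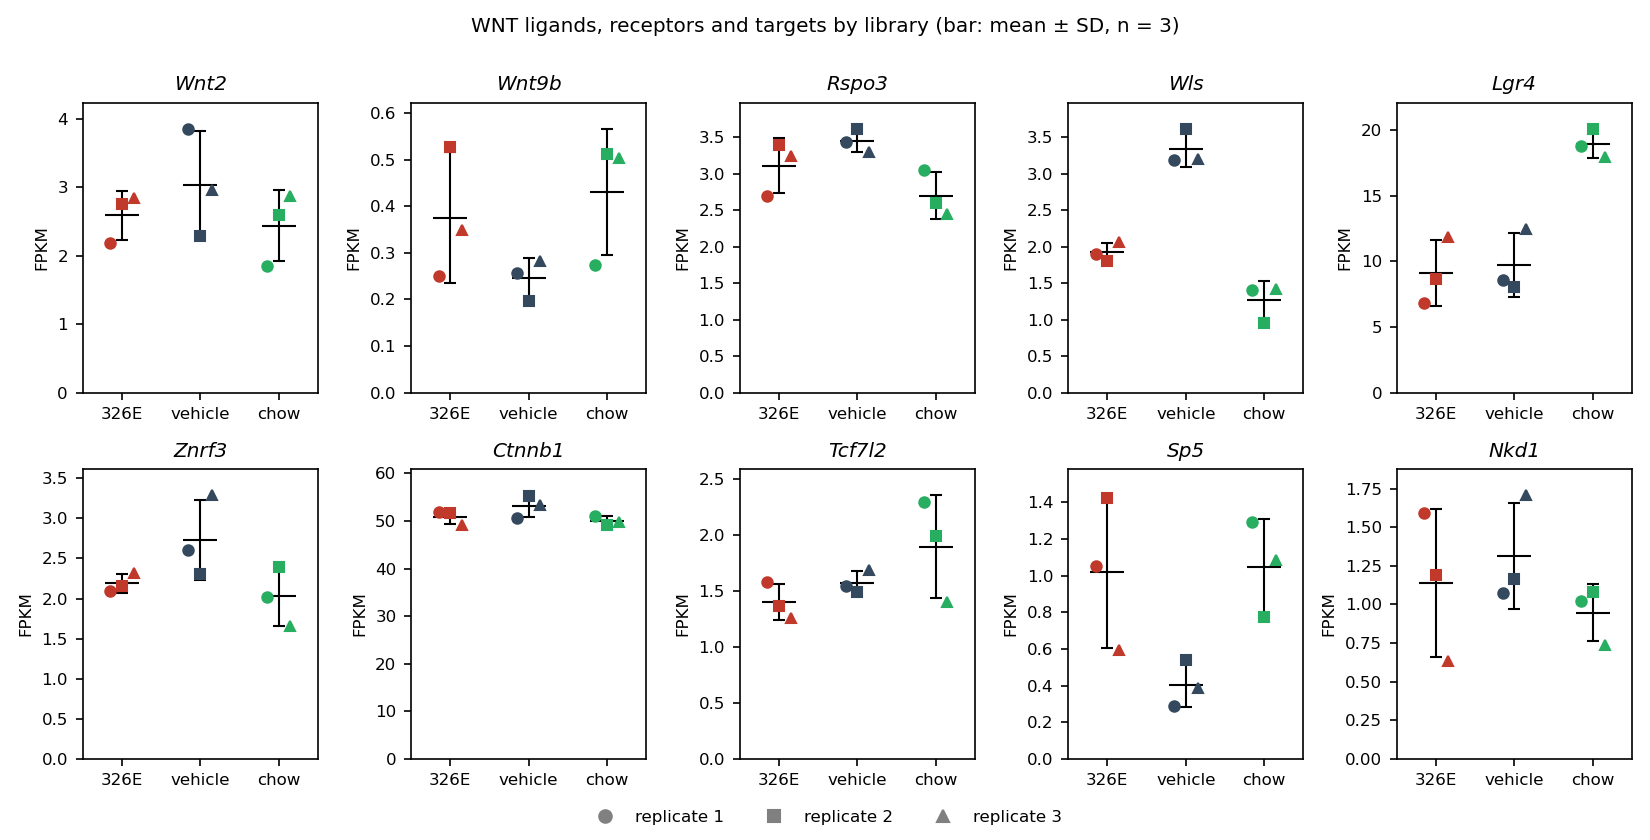
FPKM of WNT ligands, receptors, transducers and targets in every library (y axis, linear, from 0), with 326E, vehicle and chow livers along the x axis, symbols for the replicate and bars for mean ± SD of 3 libraries. Wls is highest in vehicle, Lgr4 is highest in chow at 18.0 to 20.1 FPKM, and Ctnnb1 lies between 49.2 and 55.2 FPKM in all libraries.

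Markers of other liver cells were counted in the same comparisons. Of 8 macrophage markers 7 were higher with the diet and 5 were lower with 326E, and their summed level was 508 to 890 FPKM in 326E, 939 to 1434 FPKM in vehicle and 162 to 177 FPKM in chow libraries. Trem2, a lipid receptor of macrophages, was among them (-1.58 ± 0.28 with 326E, 3.47 ± 0.28 with the diet), as was Gpnmb (-1.84 ± 0.34 with 326E). Of 9 stellate cell and myofibroblast markers 7 were higher with the diet and 4 were lower with 326E, with summed levels of 144 to 169 FPKM in 326E, 209 to 289 FPKM in vehicle and 47.4 to 63.8 FPKM in chow libraries. Col1a1, a chain of type I collagen, had -1.05 ± 0.26 with 326E, a call lost without vehicle replicate 2 (-0.83) among others, and 4.02 ± 0.26 with the diet, while Col1a2 had -1.03 ± 0.20 with 326E (lost without 326E replicate 2, -0.96) and Col3a1 3.69 ± 0.23 with the diet. The highest sums of both lists among the vehicle libraries were in vehicle replicate 2. Of 11 endothelial markers 6 were higher with the diet and 1 was lower with 326E, thrombomodulin, Thbd (-1.43 ± 0.26 with 326E, 1.98 ± 0.26 with the diet), with Lyve1 at 1.32 ± 0.17 with the diet. Their summed level was 68.8 to 71.4 FPKM in 326E, 67.5 to 84.9 FPKM in vehicle and 46.3 to 58.3 FPKM in chow libraries. Of 7 cholangiocyte markers 5 were tested and 3 were higher with the diet, Spp1 and Epcam among them (2.23 ± 0.36 and 1.48 ± 0.50, the Epcam call being lost without vehicle replicate 2 (1.11) or 3 (1.40) or chow replicate 2 (1.45) or 3 (1.28)), and summed 84.4 to 142 FPKM in 326E, 114 to 331 FPKM in vehicle and 35 to 56.7 FPKM in chow libraries. None of these 5 was called with 326E, by limma. Of 5 lymphocyte markers 1 was tested and 0 were called, with summed levels of 1.16 to 4.50 FPKM in 326E, 2.04 to 4.11 FPKM in vehicle and 0.904 to 1.41 FPKM in chow libraries. The median log2 changes with 326E and with the diet were -0.69 and 2.29 for macrophage, -0.37 and 1.56 for stellate cell, 0.08 and 0.32 for endothelial, -0.88 and 1.48 for cholangiocyte and 0.02 and 0.87 for lymphocyte markers. The part of cell composition in the members' values was not tested.

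**Figure D5:**
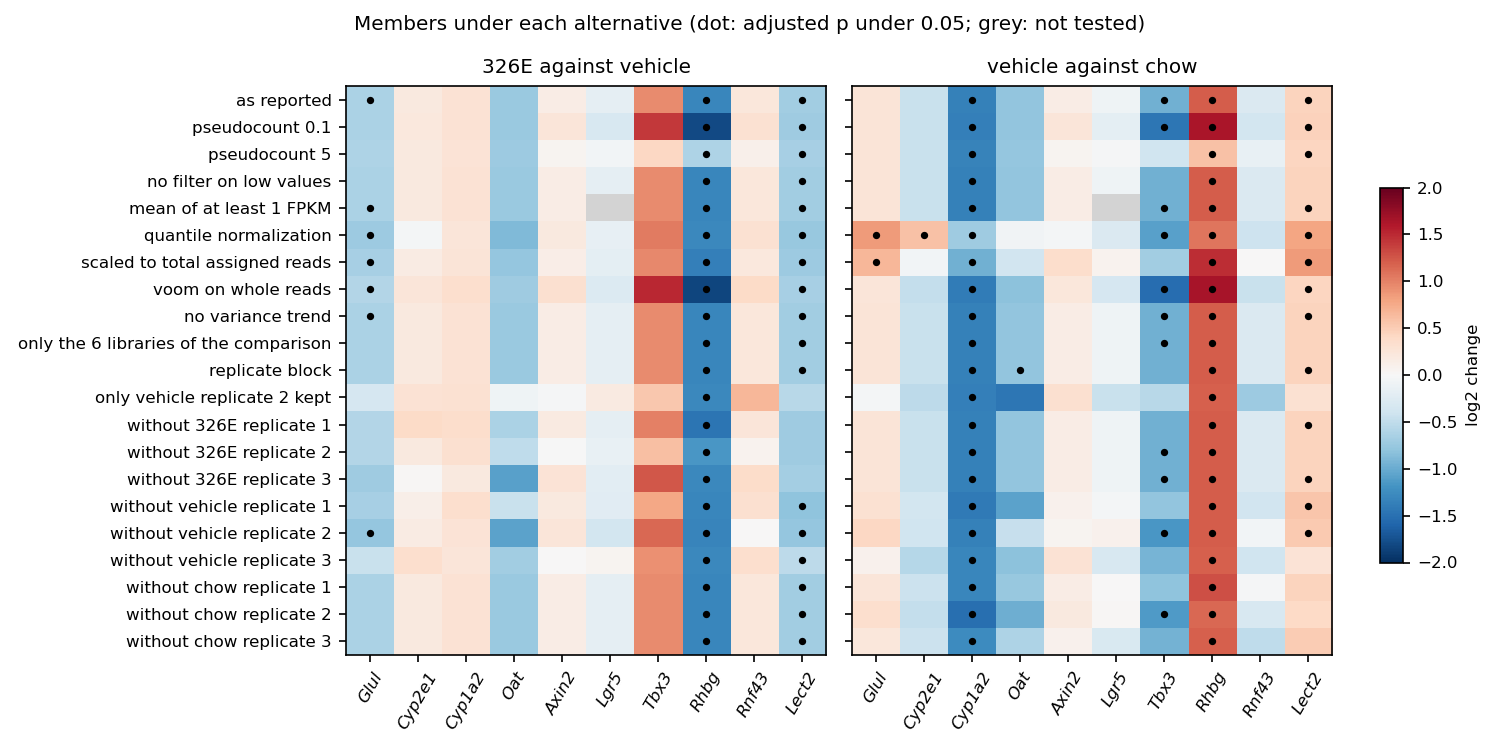
Log2 change of each member (colour) under each alternative (rows), for 326E against vehicle and vehicle against chow, with a dot at adjusted p under 0.05 and grey where the gene was not tested. Of 19 other settings of the processing, Rhbg keeps its dot in 19 in both panels and Cyp1a2 in 19 in the diet panel, while Glul keeps it with 326E in 6. The row with only vehicle replicate 2 kept is not among these 19, and its dots are not read.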

How the data were processed

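Liver poly(A) RNA of 9 libraries was analysed, 3 each of 326E, vehicle and chow. Per the submitters' processing notes HISAT2 and featureCounts were used on mm10, and versions, annotation release and strand setting are not given in the sources used here. The authors deposited FPKM per gene with a gene length. Each FPKM, read back through gene length and library size, gave whole reads within a tolerance of 0.01. The library sizes behind them were 0.828 to 0.86 of the assigned reads in chow, 1.04 to 1.19 in vehicle and 1.01 to 1.15 in 326E libraries. This is a scaling between libraries made before deposit, and how it was made is not given. It goes with the diet, and puts chow values higher against both CDAA-HFD groups than total assigned reads would. For a 2 kb gene a single read is worth 0.0246 to 0.0455 FPKM.

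The test was limma (version 3.58.1, under R 4.3.3) with its trend option, run on log2(FPKM + 1) of genes that reached 0.5 FPKM in 3 or more of the 9 libraries. All groups entered a joint model, which left 6 residual degrees of freedom. The method was tested on simulated data. Tables and figures used Python 3.11.15, pandas 2.3.3, numpy 2.4.6 and matplotlib 3.10.9.

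Members, lists and tests were chosen with earlier results of these data known. Named are all 10 members, the 2 called genes with the largest change per list in 326E against vehicle and in vehicle against chow, Wnt2, Wnt9b, Rspo3, Wls, Ctnnb1, Tcf7l2, Lgr4, Znrf3, Sp5, Nkd1, Notum, Cyp2f2, Hal, Alb and Hnf4a whatever their values, and the 3 genes most like Glul, Cyp2e1 and Axin2. Coordinates of promoters are RefSeq's on GRCm38.p6, the build of mm10. The other settings tried were a pseudocount of 0.1 or 5, no filter, a mean of at least 1 FPKM, quantile normalization, total assigned reads, voom on whole reads, no trend, 6 libraries per comparison, a replicate block, each library left out, and, chosen after seeing the data, only vehicle replicate 2 kept.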

Additional observations from a re-analysis of the deposited data

How the results depend on the processing

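With 3 libraries a group and 6 residual degrees of freedom, calls near the threshold turned on single libraries. In 326E against vehicle 1574 genes were called as reported, and over all genes tested anew the total was 1030 without a filter, 1037 with the replicate block, 647 to 1635 with 1 library left out (647 without 326E replicate 2, 712 without 326E replicate 3, 959 without 326E replicate 1, 854 without vehicle replicate 3) and 321 with only vehicle replicate 2 kept. The total of 3 members was 1 to 3 with 1 library left out. The setting with only vehicle replicate 2 kept compares with 1 vehicle library, assumed to vary like the other groups. Its totals are listed only for completeness and do not bear on stability. In vehicle against chow, 5721 genes became 3456 and 4 members 2 with only vehicle replicate 2 kept, and members were 2 without a filter and 2 to 4 with 1 library left out. In 326E against chow, 3688 genes became 2393 to 3711 with 1 library left out (2393 without 326E replicate 2), and 2 members became 1 to 2, and 1 with quantile normalization. Replicate numbers did not pair the libraries: deviations from group means correlated at -0.244 to 0.0236 over 9 same-numbered pairs and -0.181 to 0.193 over 18 others. With the replicate block Glul (326E against vehicle, adjusted p = 0.0739) and Tbx3 (vehicle against chow, adjusted p = 0.0522) did not pass, and Oat (vehicle against chow, adjusted p = 0.046) did. Signs of member values turned as follows. In 326E against vehicle this was Cyp2e1 with quantile normalization (-0.0395), Axin2 with only vehicle replicate 2 kept (-0.0277; -0.012 to 0.28 with 1 library left out) and Lgr5 (0.18; -0.36 to 0.0493). In vehicle against chow it was Glul with only vehicle replicate 2 kept (-0.0326), with quantile normalization Cyp2e1 (0.59) and Axin2 (-0.0423), and with total assigned reads Lgr5 (0.0692; -0.32 to 0.0903 with 1 library left out) and Rnf43 (0.0051). In 326E against chow it was, with quantile normalization, Glul (0.13), Cyp2e1 (0.55) and Lect2 (0.0238), and with total assigned reads Glul (0.0019), Cyp2e1 (0.12), Lect2 (0.11), Tbx3 (0.26), Rhbg (0.11) and Rnf43 (0.21). Tbx3 also turned with a pseudocount of 5 (0.0129), and with 1 library left out Tbx3 ranged from -0.36 to 0.28, Rhbg from -0.26 to 0.0463 and Rnf43 from -0.29 to 0.20. The share of called genes that were higher moved to 84.1% in vehicle against chow and 86.9% in 326E against chow with total assigned reads, against 49.97% and 53.5% as deposited. Lgr5 gave no value under a mean of at least 1 FPKM. The cause of these changes was not tested.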
